A study of Bos taurus with 29 samples.

Results

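GAL, TAC1 and CALCB, 3 neuropeptide genes, were examined in the hypothalamus of heifer calves, out of 24596 genes in the deposited table. The genes were chosen by name, and each was found by its Ensembl identifier: ENSBTAG00000009393 for GAL, ENSBTAG00000015356 for TAC1 and ENSBTAG00000001516 for CALCB. GAL encodes the precursor of galanin, a peptide that acts through its own family of G protein-coupled receptors and is found in hypothalamic neurons linked to feeding, sleep and hormone release. TAC1 encodes the precursor of the tachykinins substance P and neurokinin A, which act through the neurokinin receptors. CALCB encodes the beta form of calcitonin gene-related peptide (CGRP), which signals through the calcitonin receptor-like receptor together with a receptor activity-modifying protein and is best known as a dilator of blood vessels and as a peptide of sensory neurons. Such precursors are cut into active peptides, stored in dense-core vesicles and released by the neurons that make them.

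The calves were 29 Angus X Holstein-Friesian heifers slaughtered at 21 weeks of age, of which 14 had been reared on a high (HI) and 15 on a moderate (MOD) plane of nutrition, with target gains of 1.2 and 0.5 kg/d. In the calf phase of 8 weeks HI calves were offered 1.5 kg (10 l) and MOD calves 0.5 kg (4 l) of milk replacer per day, and over the 11 weeks after weaning HI calves had concentrates ad libitum and MOD calves 1 kg per day. The arcuate nucleus had been dissected away beforehand, so that each sample was the remaining hypothalamus of 1 calf, a mixture of many nuclei. A lower level in such a bulk sample can come from fewer cells of a type or from less RNA per cell, and the 2 cannot be told apart.

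Expression is given in CPM, the read count of a gene relative to the library size, after the TMM scaling of edgeR (trimmed mean of M-values) that the authors applied. Between 11820640 and 17206435 reads per calf lay behind the values, so that 3 reads corresponded to 0.178 to 0.279 CPM. By their mean distance to all others on the log2 scale, calves 1689, 2120, 1395 and 2551 stood apart (3.13 to 3.51, against 1.76 to 2.44 for the other 25). All 3 genes varied widely between calves. In HI and MOD alone the SD of log2(CPM + 1) was 1.18 and 1.74 for GAL and 1.02 and 1.22 for TAC1. For CALCB it was 0.647 and 1.3. Over the 29 calves the SD of log2(CPM + 1) of GAL was 1.47 and that of TAC1 1.16, against a median of 0.43 over the 13785 genes that passed the expression filter (above 1 CPM in 14 or more calves), which placed them at the 99.5 and 97.3 percentiles. CALCB, with an SD of 1.07, lay at the 97.1 percentile of the 19525 genes read in any calf, for which the median SD was 0.35.

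**Figure D1:**
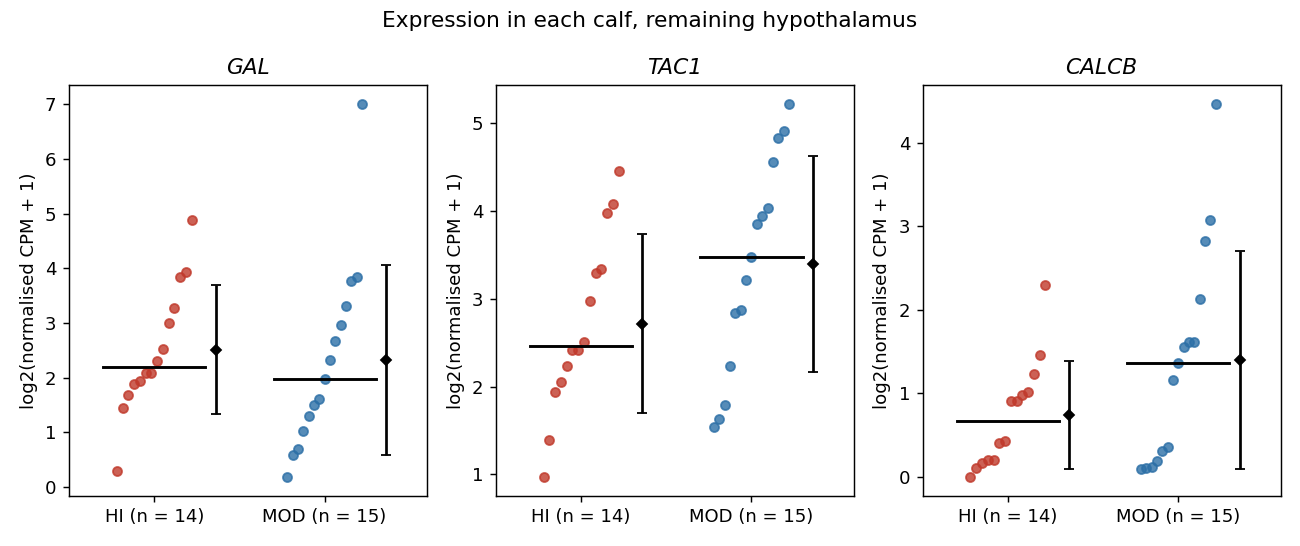
Expression of GAL, TAC1 and CALCB as log2(normalised CPM + 1) on the vertical axis in each of 14 HI and 15 MOD calves, with the points of a diet in order of value, the horizontal line at the median and the diamond with bars at the mean ± SD. The diets overlap for all 3 genes, and 1 MOD calf of GAL (128 CPM) and 1 MOD calf of CALCB (21.1 CPM) stand above all others.

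The direction of the galanin difference between diets depended on how expression was summarised. GAL ranged from 0.228 CPM in calf 2528 to 28.6 CPM in calf 553 among HI calves, with a median of 3.6 CPM. In MOD calves it ranged from 0.134 CPM in calf 1395, which had 2 reads, to 128 CPM in calf 2551, which had 1788, with a median of 2.96 CPM. The diets overlapped over nearly the whole range, and calf 2551 stood alone. That calf held 67.6% of the GAL expression of MOD and exceeded the second highest MOD calf, 911 with 13.4 CPM, by 9.6 times. The 95% Poisson interval of its value, 123 to 134 CPM, covers counting error alone.

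By the mean, GAL was lower in HI (6.9 ± 7.52 CPM, SD, n = 14) than in MOD (12.7 ± 32.3 CPM, SD, n = 15), and the log2 ratio was -0.88. By the median it was higher in HI, with a log2 ratio of 0.28, and the MOD median was exceeded by 9 of 14 HI calves. Without calf 2551 the MOD mean was 4.4 ± 4.44 CPM, below that of HI. Neither difference passed a two-sided permutation test of the diets (p = 0.873 for the mean and 0.812 for the median). The test of the mean turned largely on the diet to which calf 2551 was assigned, because that calf held 44.8% of the GAL expression of all 29. It therefore says little about the other calves. On log2(CPM + 1) limma placed the difference, HI minus MOD, at 0.19 with a standard error of 0.53 (p = 0.718, 0.999 after adjustment over 13785 genes). It was 0.53 without MOD calf 2551 and 0.01 without HI calf 553, the largest and smallest values with 1 calf left out.

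Tests on reads placed the galanin difference on either side of 0. The exact test of edgeR gave a log2 fold change of -0.88 (p = 0.198, adjusted p = 1), whereas DESeq2, which by default replaces the reads of outlying calves, gave 0.64 (standard error 0.51, p = 0.214, adjusted p = 1). When DESeq2 was run without that replacement it gave -0.88 and no p-value. Calf 2551 also had the highest level of the 29 calves for NPY (15.6 CPM) and CARTPT (17.7 CPM), 2 further peptide precursors, for CGA (5.53 CPM), a subunit of pituitary glycoprotein hormones, and for HPCA (204 CPM), a neuronal calcium sensor. For CHGA, a protein of secretory granules, it ranked 2nd (723 CPM) and for POMC 3rd (61.7 CPM). For GAD2 (9.62 CPM), SV2B (128 CPM) and NEFH (513 CPM), 3 other neuronal genes, it ranked 25th, 23rd and 22nd. The part of these levels in the GAL value of that calf was not tested.

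The tachykinin precursor TAC1 was lower in HI by mean and by median, but neither difference passed the permutation test. HI calves ranged from 0.96 CPM in calf 2570 to 20.9 CPM in calf 1050, with a median of 4.51 CPM. MOD calves ranged from 1.91 CPM in calf 1690 to 36.2 CPM in calf 2537, with a median of 10.1 CPM. The diets overlapped, and 11 of 14 HI calves lay below the MOD median. The highest MOD calf held 18.2% of the expression of its group, and the next, calf 2532, had 28.9 CPM.

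Mean TAC1 expression was 7.28 ± 6.0 CPM in the 14 HI and 13.3 ± 10.9 CPM in the 15 MOD calves (mean ± SD), a log2 ratio of -0.87, and the log2 ratio of the medians was -1.16. The permutation test gave p = 0.0784 for the means (0.122 adjusted over the 3 genes) and 0.118 for the medians (0.243 adjusted). On log2(CPM + 1) limma gave -0.68 with a standard error of 0.40 (p = 0.102, adjusted 0.999). The value stayed between -0.81, without HI calf 1050, and -0.54, without HI calf 2570. All calves had at least 14 TAC1 reads, the most being 541.

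CALCB, the least read of the 3, was lower in HI by mean and by median, but neither difference passed the permutation test. It ranged in HI from 0 CPM in calf 2570, where the floor of 3 reads allowed up to 0.206 CPM, to 3.91 CPM in calf 986, with a median of 0.61 CPM. In MOD it ranged from 0.067 CPM in calf 1395, a single read, to 21.1 CPM in calf 1392, which had 278 reads, with a median of 1.58 CPM. The diets overlapped at the low end, where 5 calves of each diet had at most 3 reads. CALCB exceeded 1 CPM in 13 calves, 4 HI and 9 MOD, which was 1 calf short of the filter.

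The mean of CALCB was 0.852 ± 1.03 CPM in the 14 HI and 3.19 ± 5.44 CPM in the 15 MOD calves (mean ± SD), a log2 ratio of -1.90, and the medians gave -1.37. Calf 1392 held 44.2% of the MOD expression, and without it the MOD mean was 1.91 ± 2.31 CPM. Of the HI calves, 12 of 14 lay below the MOD median. The permutation test gave p = 0.0812 for the means (0.122 adjusted over the 3 genes) and 0.162 for the medians (0.243 adjusted). Fitted by limma together with all 19525 genes read in any calf, the difference on log2(CPM + 1) was -0.66 with a standard error of 0.37 (p = 0.0849, adjusted 0.999), and without calf 1392 it was -0.44. This scale understates differences of genes with few reads, and with a pseudocount of 0.1 CPM the value was -1.01. CALCB is the symbol or a synonym of 2 genes in bovine RefSeq. Whether reads were shared between genes of the calcitonin family, which would make its level uncertain, was not tested.

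No gene passed an adjusted p of 0.10 with a fold over 1.5 by limma, among 13785 genes (0% called, 179 with an unadjusted p under 0.05) or among 19525 (0% called, 369 with an unadjusted p under 0.05). With the exact test of edgeR on reads, the unadjusted p was 0.0455 for TAC1 (log2 fold change -0.87) and 0.00819 for CALCB (-1.89), each with an adjusted p of 1. An unadjusted p under 0.05 was found for 1.52% of the 13785 genes by that test and for 2.04% of the 19525. The study had itself listed the 3 genes from a comparison of these same calves, so that their direction is not independent evidence. DESeq2 gave -0.87 (p = 0.0414) for TAC1 and -1.91 (p = 0.00528) for CALCB, both with an adjusted p of 1.

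The spread between calves was numerically wider in MOD for each gene on the log2 scale. The mean absolute deviation of log2(CPM + 1) from the diet median was 0.88 in HI and 1.27 in MOD for GAL, 0.80 and 1.01 for TAC1, and 0.52 and 1.00 for CALCB. None of these differences passed the permutation test (p = 0.318, 0.318 and 0.0654, the last 0.196 when adjusted over the 3 genes). For TAC1 the SD divided by the mean CPM was nearly equal, 0.824 in HI and 0.821 in MOD.

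The sequencing files carried 5 file-name prefixes, 6 to 10, each with 2 to 4 calves of each diet, and what a prefix stands for is not given in the sources used here. Within them the GAL difference on log2(CPM + 1) was 1.55, 0.37, 1.00 and 0.54 for prefixes 6 to 9, and -2.89 for prefix 10, which holds calf 2551. TAC1 was lower in HI under 4 prefixes (-0.39, -0.38, -1.53 and -1.79) and higher under prefix 8 (0.36). For CALCB the values were 0.35, -0.15, -0.63, -0.94 and -1.74. With the prefix as a term in limma the differences over all calves were 0.18, -0.74 and -0.61 for GAL, TAC1 and CALCB. Without the 4 calves that stood apart they were 0.46, -0.69 and -0.78.

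**Figure D2:**
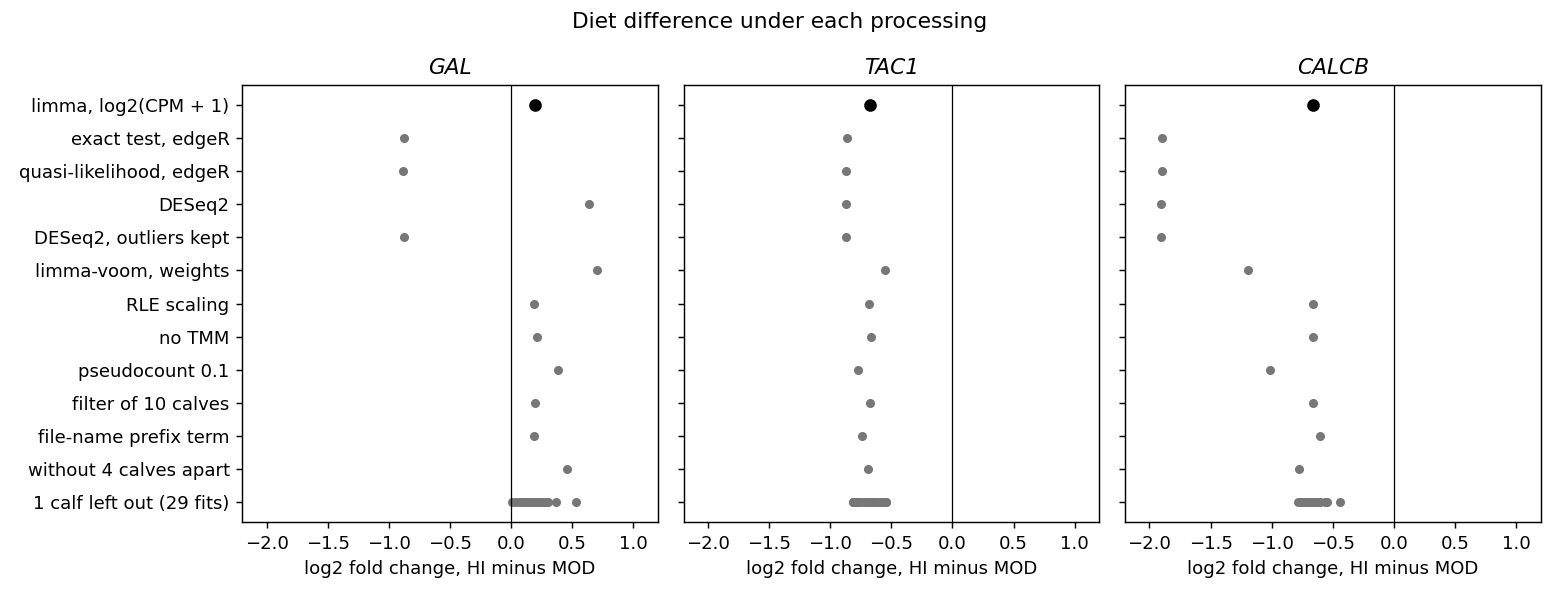
Difference between diets, HI minus MOD, as a log2 fold change on the horizontal axis for GAL, TAC1 and CALCB, with the limma value in black and other processings in grey, each on its own line, the lowest line holding the 29 fits with 1 calf left out. GAL lies on both sides of 0 (-0.88 to 0.71), whereas TAC1 and CALCB are below 0 under each processing shown.

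TAC1 and CALCB levels rose and fell together across calves. Over the 29 calves log2(CPM + 1) of the 2 genes had a Pearson r of 0.676 (permutation p = 4e-05, 0.00012 adjusted over 3 pairs) and a Spearman rho of 0.813 (permutation p = 1e-05, the smallest that 100000 resamples can give, 3e-05 adjusted). Calves 911, 2532, 2537 and 3622, all MOD, were among the 7 highest calves for both genes. Calf 1392, first for CALCB, was 14th for TAC1, and HI calf 2570 was lowest for both. In the 19 calves with more than 3 reads of each gene, the median was 7.82 reads of TAC1 per read of CALCB, and calf 1392 had 0.392, the lowest, with 3.71 as the next.

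The relation was found within each diet. In HI calves r was 0.757 (permutation p = 0.00145, n = 14) and in MOD calves 0.623 (permutation p = 0.0123, n = 15), and with the diet means subtracted r was 0.643. It was 0.678 without calves 2570 and 2537, the 2 farthest from the median of TAC1, and 0.820 without calves 2532 and 1392, the 2 farthest from the median of CALCB. With each calf left out it stayed between 0.638 and 0.832. Within the prefixes that held 6 calves, r was 0.947, 0.598, 0.452 and 0.849 for prefixes 6 to 9, positive in each, with exact permutation p of 0.0514, 0.219, 0.389 and 0.0153, none past 0.05 after adjustment over the 12 values. Without the 4 calves that stood apart r was 0.680. In those 25 calves CALCB also rose with the TMM factor of the calf (rho = 0.672, permutation p = 0.00031, 0.00186 adjusted over 6 values). For TAC1 and GAL rho with the factor was 0.478 and 0.439 there (permutation p = 0.0171 and 0.0292, adjusted 0.0514 and 0.0585). Over all 29 calves it was 0.310 for CALCB and 0.260 for TAC1, and neither passed the test. Without TMM scaling r between TAC1 and CALCB was 0.683. The part of the TMM factor in that relation was not tested.

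No relation of GAL to TAC1 or CALCB was detectable. With TAC1 its r was 0.072 (permutation p = 0.715) and its rho 0.062 (permutation p = 0.747), and with CALCB its r was 0.205 (permutation p = 0.277) and its rho 0.256 (permutation p = 0.18). Without calves 553 and 2551, the 2 farthest from the median of GAL, r was 0.129 with TAC1 and 0.301 with CALCB. The sign of the first changed between diets (-0.159 in HI and 0.231 in MOD). Within prefixes 6 to 9 r was -0.103, -0.033, 0.386 and -0.187 with TAC1 and 0.013, -0.190, 0.672 and -0.098 with CALCB. Whether these correlations differ from that of TAC1 with CALCB was not tested. Of the 7 highest calves for GAL, 1 was among the 7 highest for TAC1 (calf 911) and 2 were among those for CALCB (calves 911 and 1392).

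**Figure D3:**
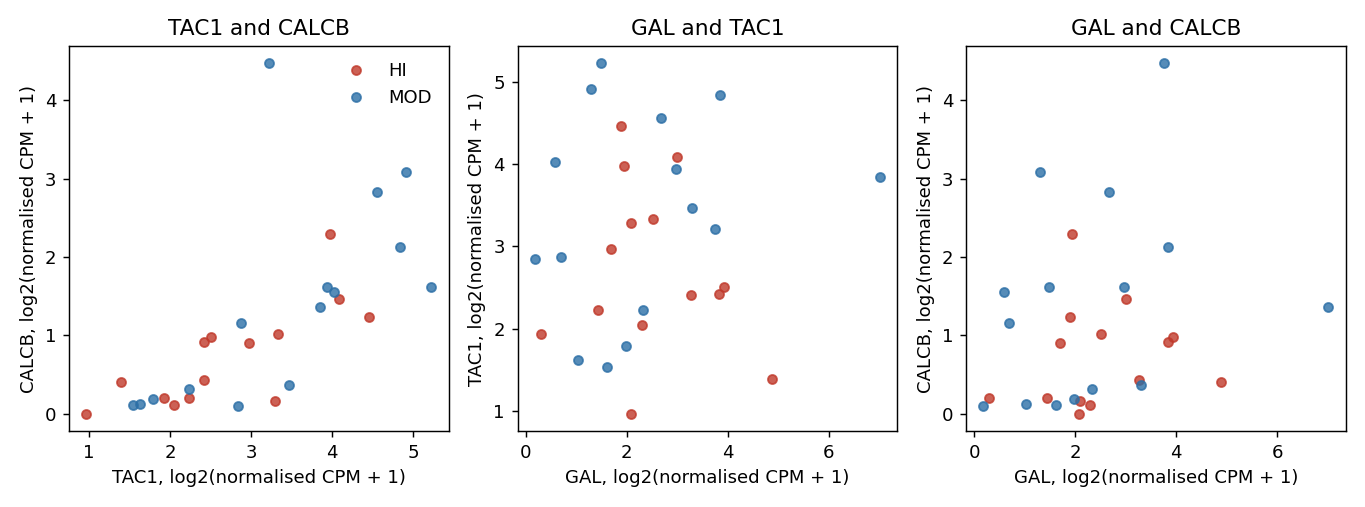
Each panel plots 2 of the 3 genes against each other in log2(normalised CPM + 1), with 1 point per calf, HI in red and MOD in blue. TAC1 and CALCB lie along a rising band (Spearman rho 0.813) with MOD calf 1392 above it, and the panels with GAL show no such band (rho 0.062 and 0.256).

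Family members and receptors could not be followed, because 0 of the 17 on the list (such as the galanin receptors, the neurokinin receptors and CALCA) are paired with an identifier in the sources used here. The 12 other peptide precursors and hormone genes listed all were, because the study had listed them as differing between diets in this tissue or in the arcuate nucleus. Of the 36 pairs of GAL, TAC1 or CALCB with a listed gene, 15 had a Spearman rho with an adjusted p under 0.05 by permutation test over 29 calves, all of them positive, comprising 2 for GAL, 6 for TAC1 and 7 for CALCB. By Pearson r the count was 12. The share of all genes with such a correlation was not counted, so that these counts cannot be called particular to peptide precursors. Nor were the listed genes chosen independently of the study's diet comparison, from which GAL, TAC1 and CALCB also came. None of the 12 listed genes passed the test between diets by limma (adjusted p = 0.999 each).

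PENK, the precursor of the enkephalins, and CARTPT, the precursor of the CART peptides, had the highest correlations with both TAC1 and CALCB. With PENK, rho was 0.729 for TAC1 and 0.853 for CALCB (adjusted permutation p = 0.00027 and 0.00018), and in HI and MOD alone it was 0.789 and 0.650 for TAC1 and 0.807 and 0.836 for CALCB. With CARTPT, rho was 0.723 for TAC1 and 0.814 for CALCB (adjusted permutation p = 0.00024 and 0.00018). The Pearson r with PENK was 0.737 for TAC1 and 0.794 for CALCB (0.666 and 0.760 after removal of the 2 calves most distant from the PENK median), and with CARTPT it was 0.668 and 0.758 (0.730 and 0.753 without its 2 farthest calves). Within prefixes 6 to 9 these 4 rho values were all positive, with PENK from 0.486 to 0.829 for TAC1 and 0.657 to 1 for CALCB, and with CARTPT from 0.371 to 0.771 and 0.257 to 0.886.

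The magnocellular hormones vasopressin and oxytocin, made in the supraoptic and paraventricular nuclei, were correlated with CALCB (rho = 0.616 for AVP and 0.655 for OXT) and less closely with TAC1 (0.470 and 0.434), a difference that was not tested. Of the lateral hypothalamic peptides, PMCH passed the test with TAC1 (rho = 0.433) and CALCB (0.468), and HCRT, the orexin precursor, passed with CALCB (0.450) and not with TAC1 (0.365). By Pearson r, HCRT passed with TAC1 as well (0.457, adjusted permutation p = 0.039), whereas AVP (0.406) and OXT (0.343) with TAC1 and PMCH (0.401) with CALCB did not (adjusted permutation p = 0.069, 0.146 and 0.069). For GAL the precursors past the threshold by rho were OXT (rho = 0.493, adjusted permutation p = 0.0324) and NPY (0.451, adjusted permutation p = 0.0418). Their Pearson r was 0.422 for OXT (adjusted permutation p = 0.0649) and 0.521 for NPY (adjusted permutation p = 0.0193). After removal of the 2 calves most distant from the NPY median the latter was 0.277, so that its size depended in part on those calves. In HI and MOD alone rho of GAL with NPY was 0.640 and 0.375. CARTPT passed with GAL by r (0.451, adjusted permutation p = 0.039, and 0.225 after the same removal for CARTPT) and not by rho (0.339). Within prefixes 6 to 9 rho of GAL ranged from -0.143 to 0.943 with OXT and from -0.086 to 0.771 with NPY. NPY was also past the threshold of rho with TAC1 (0.502) and CALCB (0.482), the latter with an r of 0.297 that did not pass (adjusted permutation p = 0.22). PDYN, POMC, PRL and CGA, as well as AGRP, which had at most 0.153 CPM in a calf, passed with none of the 3. Without the 4 calves that stood apart 7 pairs remained past the threshold, namely TAC1 with PENK, CARTPT and NPY and CALCB with PENK, CARTPT, AVP and OXT, so that neither pair of GAL did.

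**Figure D4:**
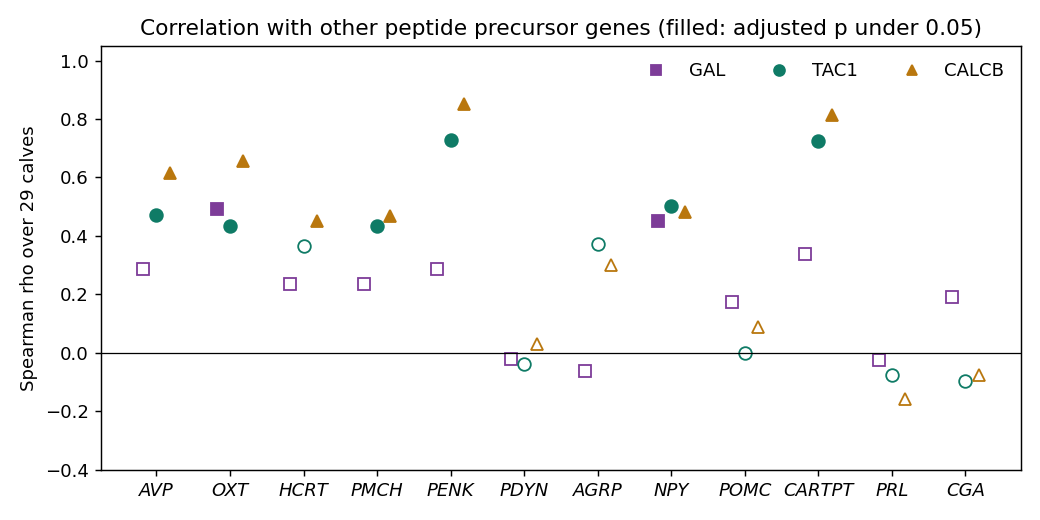
Spearman rho over 29 calves (vertical axis) of GAL, TAC1 and CALCB with each of 12 other peptide precursor and hormone genes (horizontal axis), with filled symbols for an adjusted p under 0.05. TAC1 and CALCB are highest with PENK (0.729 and 0.853) and CARTPT (0.723 and 0.814), and the filled GAL symbols are OXT (0.493) and NPY (0.451).

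Levels of marker genes moved with TAC1 and CALCB. Of 24 correlations with the summed CPM of 8 marker lists, 4 passed an adjusted p of 0.05 by Spearman rho with permutation. TAC1 fell as the neuronal list rose (rho = -0.585, adjusted permutation p = 0.0128), and in HI and MOD alone rho was -0.477 and -0.596, whereas the Pearson r of -0.438 did not pass (adjusted permutation p = 0.0784). That list held 5 of 5 genes (GAD2, CHGA, NEFH, SV2B and HPCA), none at 0 in any calf, and its sum ranged from 981 to 1935 CPM in HI and from 215 to 2272 CPM in MOD. Only the 114 genes that the study listed as differing between diets, in this tissue or in the arcuate nucleus, have a symbol here. Every marker was such a gene, so that no list is a full or independent set for its cell type. The sum weighed the most expressed genes most, with medians in HI and MOD of 699 and 569 CPM for NEFH and 38.4 and 27.5 CPM for GAD2. Correlations of TAC1 with the single genes of the list were not computed, so that its rho is not a measure of neuron content. CALCB rose with the magnocellular pair AVP and OXT (rho = 0.648, r = 0.635) and fell as the oligodendrocyte marker KLK6 rose (rho = -0.527, r = -0.682). With the lateral hypothalamic pair HCRT and PMCH its rho of 0.488 passed and its r of 0.427 did not (adjusted permutation p = 0.0784). Both pairs consist of peptide genes already compared with CALCB above, so that their values are not separate findings. After removal of the 2 calves most distant from the median of each list, r was -0.606 for TAC1 with the neuronal list, and 0.735, -0.459 and 0.348 for CALCB with the magnocellular, KLK6 and lateral values. Without the 4 calves that stood apart CALCB was also inversely related to the neuronal list (rho = -0.711, adjusted permutation p = 0.0018) and TAC1 to KLK6 (rho = -0.589, adjusted permutation p = 0.0121), whereas the rho of CALCB with the lateral pair, 0.408, no longer passed (adjusted permutation p = 0.119). KLK6 ranged from 46.1 to 217 CPM in HI and from 13.1 CPM, in calf 1392, to 203 CPM in MOD. The magnocellular sum ranged from 0.381 to 1178 CPM in HI and from 0.134 to 4542 CPM in MOD, and the lateral hypothalamic sum from 0.344 to 117 and from 0.23 to 581 CPM, with AVP, OXT and HCRT at 0 in at least 1 calf each. For GAL 0 of 8 lists passed. The part of the marker levels in the relation between TAC1 and CALCB was not tested.

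Among the 109 genes with a symbol and a read in at least 15 of the calves, the genes whose pattern over the 29 calves was most like that of CALCB were NNAT (rho = 0.931), BAIAP3 (0.871) and PENK (0.853), which ranked 1st, 3rd and 7th of 16573 genes with or without a symbol. NNAT encodes neuronatin, an imprinted membrane protein of brain and endocrine cells, and BAIAP3 a protein of dense-core vesicle release. For TAC1 they were CALCB (0.813), NNAT (0.796) and BAIAP3 (0.775), in ranks 4, 8 and 12. TAC1 in turn was 16th in likeness to CALCB. For GAL the nearest genes with a symbol were RTP5 (0.524), ANO3, a member of the anoctamin family (0.518), and OXT (0.493), in ranks 76, 90 and 131. The 109 genes were named because the study listed them, and these likenesses are descriptions over calves that share depth and dissection.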

How the data were processed

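RNA-Seq of the remaining hypothalamus was analysed for 14 HI and 15 MOD calves, grouped by the diet in the sample labels. The authors trimmed reads with Cutadapt 2.6, then aligned them to UMD3.1 and counted them per gene with STAR (2.6.1 per the submitters' processing notes, another version per the paper). The counts were TMM-normalised in edgeR. The deposited signal is TMM-normalised CPM per gene and calf, without a filter. All values (100%) were whole multiples of 1 read, within 7.45e-05 reads, and the recovered reads, 11820640 to 17206435 per calf, entered the tests on reads.

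The main test was limma 3.58.1 with a trend on log2(CPM + 1) in R 4.3.3, over 13785 genes above 1 CPM in at least 14 calves (19525 genes with at least 1 read for CALCB), with Benjamini-Hochberg adjustment. It was tested on simulated data. Alternatives in edgeR 4.0.16 and DESeq2 1.42.0 and others are given in the closing section. Group differences in mean, median and spread, and correlations, were tested by 100000 two-sided permutations (exact with 6 calves), adjusted within each family. Poisson intervals and floors of 3 reads cover counting error only.

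The 3 genes, the gene lists and the tests were chosen with earlier results of these data known. The genes named are the 3, the listed peptide precursors, family genes and markers, and for each of the 3 the nearest 3 genes with a symbol by Spearman rho. Symbols came from supplementary tables that pair 114 identifiers with symbols; bovine RefSeq (ARS-UCD2.0) matched 0 identifiers, so no coordinates or sequences are given. The authors' own fold changes were not used. The labels start the diets in week 2, and the paper a week later.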

Additional observations from a re-analysis of the deposited data

How the results depend on the processing

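TAC1 and CALCB stayed lower in HI and short of the threshold under all alternatives run (42 and 41), and GAL passed it in none of the 41 that gave it a p-value (of 42) but was on the other side of 0 in 4, at -0.88 with both exact tests of edgeR, with its quasi-likelihood test and with DESeq2 without replacement of outlying reads. Over all genes, 2 were called with DESeq2, and 1 with an exact test using classic tagwise dispersions (an alternative chosen after the data were seen, which called 2 of 19525 genes without the filter), none of them GAL, TAC1 or CALCB. The quasi-likelihood test called 0, with 224 genes at an unadjusted p under 0.05. That number depended on how calves were weighted. Among the 13785 genes it was 1742 by limma-voom with quality weights for calves (smallest adjusted p = 0.0159). By limma without the 4 calves that stood apart it was 828 (smallest adjusted p = 0.0903). In both fits 0 genes passed both the adjusted p and the fold threshold. The GAL difference was 0.641 CPM by medians, and the TAC1 difference in SD over mean was 0.00348. For GAL with TAC1, r was -0.159 in HI alone, -0.103, -0.033 and -0.187 under prefixes 6, 7 and 9, and -0.039 without the 4 calves that stood apart, and it ranged from -0.007, without MOD calf 2551, to 0.177 with 1 calf left out. For GAL with CALCB it was -0.190 and -0.098 under prefixes 7 and 9. For TAC1 with CALCB the prefixes gave 0.947, 0.598, 0.452 and 0.849, with 6 calves each. Leaving out the 4 calves, a step added with the values in view, gave 7 pairs with other peptide genes past the threshold in place of 15. The causes were not tested. CALCB has no value under the filter of 14 calves. Depth limits CALCB most, with at most 3 reads in 10 of 29 calves. No paired analysis was possible because the labels number calves individually and link none across diets.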
